A study of Mus musculus with 15 samples.

Results

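The kidneys of the low-fat sham mice form the group with neither treatment in a study of high-fat feeding and uninephrectomy, the surgical removal of 1 kidney. Members were all arrays whose labels give a low-fat diet and sham surgery: 4 of 15, 1 per mouse, from 4 separate animals of a group of 6. These were male C57/BJ mice, the strain as spelled in the labels. At 6 weeks of age they had a sham operation, in which the kidney was handled but left in place, and the kidneys were taken 20 weeks later. The labels call the diet both low fat and control chow and give no composition. Total RNA came from frozen kidney, so every cell type of the organ, the blood in it and any adhering tissue was measured together. The labels do not say which kidney, or which piece of it, was extracted. No comparison with the other groups was made, beyond the spread of the same genes within each. The other arrays cover low-fat uninephrectomy (4 arrays), high-fat sham (3) and high-fat uninephrectomy (4).

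The nephron is the kidney's filtering unit. Blood is filtered in the glomerulus through podocytes and endothelium. The proximal tubule then takes back sugar, amino acids, phosphate and filtered protein, Henle's loop builds the salt gradient of the medulla, and the distal tubule and collecting duct set the final salt, acid and water content of the urine. The proximal tubule makes up most of the cortex and runs on fatty acids, with dense mitochondria. A microarray reads each transcript through the brightness of a matching probe. Probes differ in how strongly they bind, so the order of genes given here is an order of probe signals and only roughly one of transcript numbers.

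The array had 1 colour (Cy3) and 39429 probes, of which 27234 carried a gene name and stood for 20659 genes. Values are given as normalised log2 signal: log2 of the processed signal minus the array's own 75th percentile, so that 0 is the brightness of a probe at that percentile. Each gene is represented by its brightest probe. Between 60.7% and 64.4% of spots per array were well above background by the scanner software's own flag, and no spot was saturated. All 4 arrays lay on the same slide. Log2 signals correlated at r = 0.990 to 0.993 between pairs of mice, across 39396 probes that are not independent of one another. The array of mouse 1 had the lowest 75th percentile (1419, against 1748 to 1945 in mice 2 to 4) and the fewest spots above background. Its normalised floor was therefore higher, with negative controls at -7.27 against -7.93 to -7.85. Values near the floor carry no order between mice.

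Of the 20659 genes, 13799 (66.8%) were well above background on all 4 arrays, 5437 (26.3%) on none and 1423 (6.89%) on some. Signals of detected genes spanned -5.48 to 8.34. The signal was concentrated: the 10 brightest genes held 3.84% of the summed signal, the 100 brightest 21.2% and the 1000 brightest 64.9%.

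**Figure D1:**
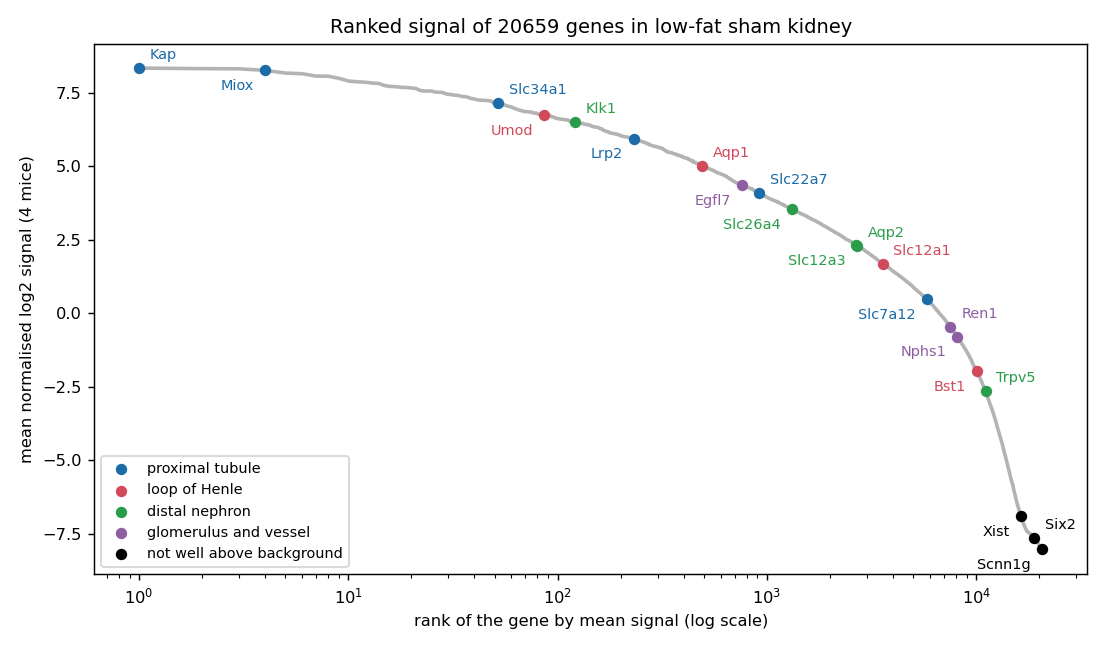
Mean normalised log2 signal (vertical axis, 4 mice) of 20659 genes against their rank (horizontal axis, log scale), with named genes coloured by nephron segment. Kap and Miox of the proximal tubule stand at ranks 1 and 4, Umod of the loop at rank 86, and Six2, Scnn1g and Xist lie among the genes not well above background.

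The brightest named gene was Kap, the androgen-dependent kidney protein of the proximal tubule, at 8.34 ± 0.24 (SD, n = 4 mice, as throughout). Its values were 8.69, 8.18, 8.28 and 8.21 in mice 1 to 4. Miox, the enzyme that opens the ring of myo-inositol in proximal tubule cells, stood at rank 4 with 8.37, 8.25, 8.31 and 8.11. Mouse 1 was highest for both, 1.42-fold above the lowest mouse in Kap and 1.20-fold in Miox. Fxyd2, the gamma subunit that tunes the sodium pump, stood at rank 5 (8.17 ± 0.15), and its second-brightest probe read 7.90. Other proximal genes of high rank were Gpx3, the secreted glutathione peroxidase made in this segment (7.86 ± 0.07), and Ass1, which makes argininosuccinate on the way to arginine (7.52 ± 0.12).

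The window of 250 bases before the annotated start is shown for both leading proximal genes (RefSeq, GRCm38.p6), because Kap carries a TATA box next to its start and Miox holds the core motif of HNF1, a factor of proximal tubule and liver. The motifs were searched on both strands, as TATAAA for the TATA box and GTTAAT for the HNF1 core. Capitals mark TATAAA in Kap and the HNF1 core in Miox, which is read there on the opposite strand. The Miox window also holds TATAAA near its start, left in lower case. Kap lies at chr6:133853668-133853917 on the minus strand, with TATAAA 31 bases before the start. Miox lies at chr15:89334223-89334472 on the plus strand, with the HNF1 core 142 bases before the start.
Kap: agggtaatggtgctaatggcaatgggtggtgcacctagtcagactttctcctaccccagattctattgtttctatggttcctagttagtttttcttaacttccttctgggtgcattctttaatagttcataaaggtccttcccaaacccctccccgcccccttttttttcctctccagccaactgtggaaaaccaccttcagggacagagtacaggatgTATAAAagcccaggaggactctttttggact
Miox: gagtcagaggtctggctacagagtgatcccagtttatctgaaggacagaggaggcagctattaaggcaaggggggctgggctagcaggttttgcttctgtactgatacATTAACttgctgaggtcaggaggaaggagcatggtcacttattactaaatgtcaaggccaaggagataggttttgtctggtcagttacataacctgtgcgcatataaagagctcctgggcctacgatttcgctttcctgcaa
Among 32851 such windows of 27025 genes, 12.4% held TATAAA and 6.43% held GTTAAT. Of the 30 brightest genes, 23 had a window, and TATAAA was in 5 of them: Fth1, Kap, Miox, Ppia and Slc10a1. Among the 23, GTTAAT was in Miox alone (3.45% of windows). It was in 4 of the 18 early proximal genes with a window (Miox, Slc22a6, Slc22a8 and Slc34a1), or 4 of 20 windows (20%). Of the 8 late proximal genes with a window none held it. No match in the windows printed overlapped one of another motif. A match describes the letters and shows no binding.

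Alpha-globin genes were also among the brightest. Hba-a2, an alpha-globin gene of red cells, stood at rank 2 with 8.56, 8.20, 8.23 and 8.29 in mice 1 to 4, and Hba-a1 at rank 45 (7.24 ± 0.14). Hbb-b2 read 4.41 ± 0.09 and Alas2, the erythroid haem synthesis enzyme, 1.96 ± 0.21. Of 8 erythroid genes 5 (62.5%) were detected in every mouse, against 66.8% of all named genes. The other 3, among them Epb42, which codes for a red cell membrane protein, were not well above background in any mouse. The 4 mice differed little in the globins, with the highest 1.28-fold above the lowest for Hba-a2 and 1.24-fold for Hba-a1.

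Genes of general cell function filled much of the rest of the top 30. Gapdh of glycolysis read 7.87 ± 0.13, Tpt1 7.74 ± 0.11, the peptidyl-prolyl isomerase Ppia 7.52 ± 0.08, and the ferritin chains Fth1 and Ftl1 7.65 ± 0.11 and 7.47 ± 0.26. Cox6a1 and Cox8a, subunits of cytochrome c oxidase, stood at 8.06 ± 0.14 and 7.56 ± 0.09. Tcn2, the vitamin B12 carrier that the proximal tubule takes up and makes, was among the steadiest of these at 7.56 ± 0.03. Gpx1, the cytosolic glutathione peroxidase, read 7.81 ± 0.08.

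Some of the highest ranks rested on a single probe that another probe of the same gene did not match. Of the 30 brightest genes, 18 had more than 1 probe, and in 10 of these the second-brightest lay over 3 log2 units lower. Slc10a1, the hepatocyte bile acid transporter, stood at rank 7 (8.07 ± 0.24) with a second probe at -6.30, and Elk1, a transcription factor, at rank 9 (7.99 ± 0.20) with a second probe at -5.48. Glrx2 (8.15 and 1.59), Chchd2 (7.66 and -6.46), Kctd14 (7.83 and -2.20) and Ndor1 (7.58 and -1.20) were like them. Ranked by the second-brightest probe instead, Fxyd2, Tpt1, Gapdh and Cox8a took the first 4 places of 5476 genes, while Slc10a1 was at rank 4078 and Elk1 at 3782. Such gaps were not particular to bright genes: over 3 log2 units separated both probes in 19 of 48 of the top 100 (39.6%) and in 34.2% of 4430 detected genes. Whether such a probe reads its named gene was not tested.

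Of the 9 genes of the top 30 with that gap and 4 values, 7 were highest in mouse 1, then mouse 3, mouse 2 and mouse 4. That order was found in 7.82% of all detected genes, but it was common among bright ones, in 24 of the 100 highest and in 5 of the 13 with a single probe among the 30 highest. Exosc2 (8.54, 8.20, 8.33 and 8.18 in mice 1 to 4) and the small noncoding RNA Rn4.5s (8.27, 7.77, 7.92 and 7.64), both with 1 probe, had it too. Among the top 30 genes with several probes and a smaller gap, 1 of 8 had it. This order was looked for after the values were seen, and the lead of mouse 1 among bright genes depends on the scaling, as given below.

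The segments of the nephron were read through marker lists. Counts of detected list members stand beside 66.8% of all named genes detected in every mouse. Early proximal tubule genes were the brightest list, with a median of 4.14 over 20 genes, all well above background in every mouse, and 12 of them within the 1000 brightest genes. Slc34a1, the main sodium phosphate cotransporter, read 7.17, 6.99, 7.18 and 7.24 in mice 1 to 4. Slc22a6, an organic anion transporter, read 6.42 ± 0.16 and Slc5a2, the high-capacity glucose transporter SGLT2, 5.87 ± 0.10. Lrp2, or megalin, the receptor that retrieves filtered protein, varied more: 5.49, 6.02, 5.98 and 6.28, lowest in mouse 1 and highest in mouse 4. Slc9a3, the sodium proton exchanger of the brush border, read only -3.83 ± 0.16, at rank 12543.

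In the last, straight part of the proximal tubule the fatty acid transporter and acyl-CoA synthetase Slc27a2 led with 7.44 ± 0.11. The anion transporters Slc22a13 (4.12 ± 0.32) and Slc22a7 (4.09 ± 0.51) and the amino acid transporter Slc7a13 (4.09 ± 0.27) followed. All 12 genes of the list were detected in every mouse. Slc22a7 read 4.18, 4.71, 3.46 and 4.03 and Cyp7b1, a steroid hydroxylase, 3.00, 3.99, 2.60 and 2.98. Both were highest in mouse 2 and lowest in mouse 3.

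Umod, the hallmark of the thick ascending limb, stood at rank 86 with 6.84, 6.96, 6.65 and 6.56. Its promoter window is shown because it shares the HNF1 core with Miox, here 202 bases before the start (chr7:119479263-119479512, minus strand, capitals as above).
Umod: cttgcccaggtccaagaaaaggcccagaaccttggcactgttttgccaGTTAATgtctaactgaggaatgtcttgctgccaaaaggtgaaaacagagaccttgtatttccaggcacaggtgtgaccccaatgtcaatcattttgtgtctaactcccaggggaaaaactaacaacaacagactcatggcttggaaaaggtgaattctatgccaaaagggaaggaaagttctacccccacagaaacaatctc
In the same segment the growth factor precursor Egf read 4.77 ± 0.17, the potassium channel Kcnj1 4.36 ± 0.11 and the cation-route claudin Cldn10 3.40 ± 0.12. Slc12a1, the cotransporter that loop diuretics block, read 1.97, 2.14, 1.51 and 1.14. Nos1, the nitric oxide synthase of the macula densa, passed background in 1 of 4 mice. Of the thin limb genes, the water channel Aqp1 (5.02 ± 0.06), which the proximal tubule also makes, was steady, while the others were low or uneven between mice as given below.

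Distal convoluted and connecting tubule genes were led by Klk1, tissue kallikrein, at 6.50 ± 0.33, and the calcium-binding S100g at 5.87 ± 0.14. The thiazide-sensitive cotransporter Slc12a3 read 2.32 ± 0.19 and its kinases Wnk1 and Wnk4 3.48 ± 0.15 and 2.02 ± 0.05. Calb1 (-0.92 ± 0.27) and the calcium channel Trpv5 (-2.66 ± 0.13) were far dimmer, although all 11 genes of the list were detected in every mouse. In collecting duct principal cells the sodium pump regulator Fxyd4 (3.39 ± 0.37), the water channels Aqp3 (3.22 ± 0.10) and Aqp2 (2.30 ± 0.16) and the sodium channel subunit Scnn1a (3.11 ± 0.18) were clear. For Scnn1g, another subunit of the same channel, no array gave a signal well above background. All 13 intercalated cell genes were detected, with Car2 (3.78 ± 0.18), the ammonia channel Rhcg (3.72 ± 0.18) and pendrin, Slc26a4 (3.55 ± 0.17) as the brightest.

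Markers of the glomerulus and vessels were present. Of the podocyte list, 11 of 12 genes were detected in every mouse, against 66.8% of all named genes. Endothelial genes were led by Egfl7 (4.37), Plvap (3.59) and the VEGF receptor Flt1 (2.93), with 12 of 12 detected. Among juxtaglomerular, mesangial and smooth muscle genes Tagln read 3.70 ± 0.06 and Acta2 1.98 ± 0.17. Ren1, renin, read -0.12, -0.93, -0.13 and -0.76, higher in mice 1 and 3 than in mice 2 and 4. In whole tissue, fewer cells of a type and less RNA per cell cannot be told apart.

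**Figure D2:**
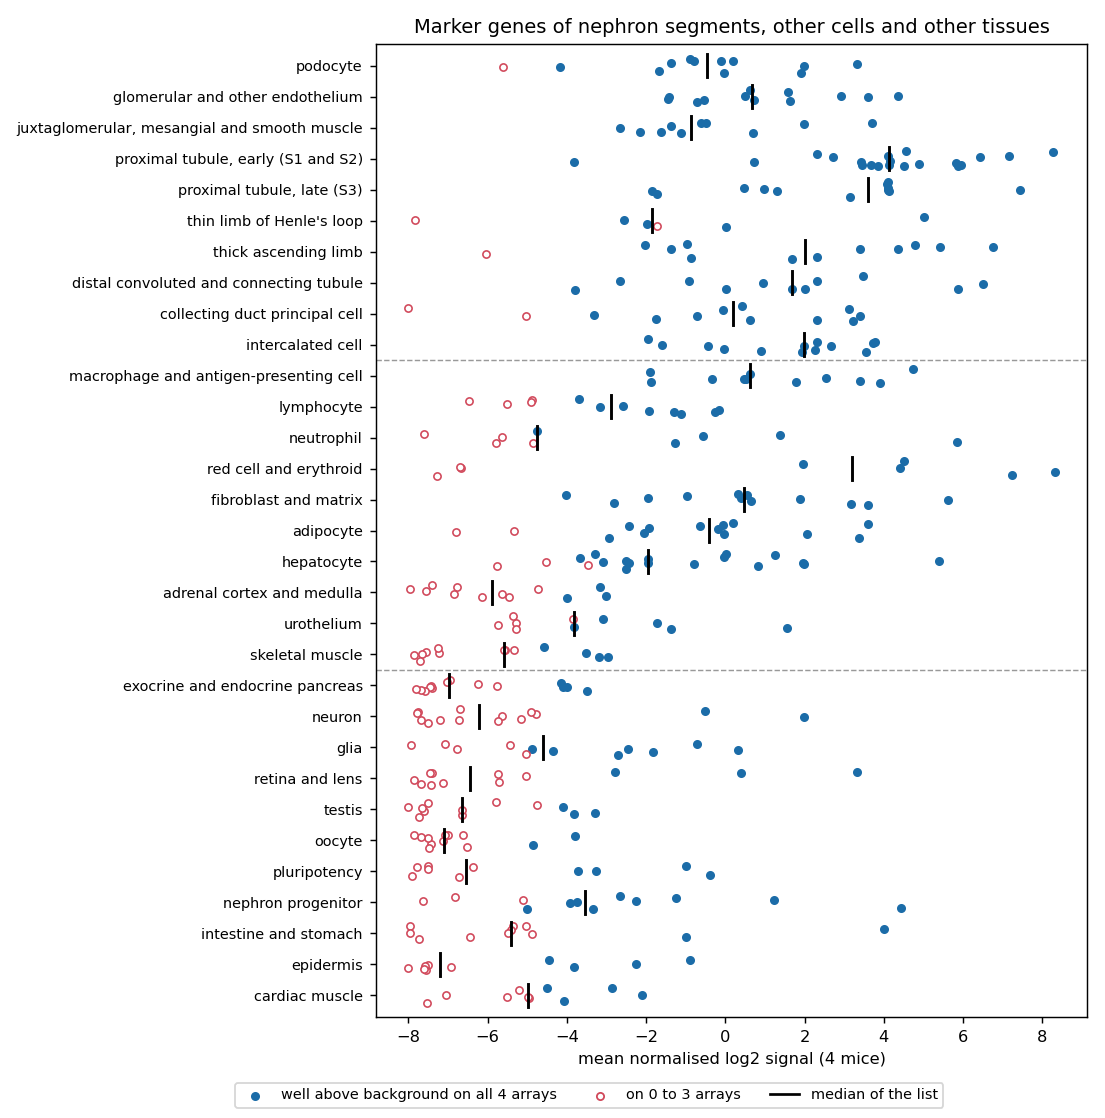
Mean normalised log2 signal (horizontal axis, 4 mice) of the genes of each marker list, with nephron segments above the upper dashed line, other cells between the lines and other tissues below. Blue points were well above background on all 4 arrays, open red points on 0 to 3, and black bars are list medians. The early proximal list sits furthest right among the segments, with a median of 4.14, and the lists of other tissues mostly at the floor.

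Metabolic lists followed the segments. All 22 respiratory chain and ATP synthase genes lay among the 1000 brightest, 21 of them with signal well above background in all 4 mice and the other, Atp5a1, with a value in 3. Cox8a, Cox4i1 (7.17 ± 0.07), the ATP synthase beta subunit Atp5b (7.12 ± 0.10) and Atp5g3 (6.77 ± 0.09) led them. Their median SD between mice was 0.0784, against 0.152 over all detected genes. Cytosolic ribosomal proteins were similar, with 83 of 85 detected, 78 in the top 1000 and a median SD of 0.0813.

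Genes of glucose synthesis and sugar handling were bright. Fructose bisphosphatase Fbp1 read 7.30 ± 0.06, ketohexokinase Khk 7.01 ± 0.11 and Pck1, which starts gluconeogenesis, 6.51 ± 0.06. In amino acid breakdown and ammonia production, D-amino acid oxidase Dao read 6.20 ± 0.15 and glutamate dehydrogenase Glud1 4.46 ± 0.14. All 18 antioxidant genes were detected, with Sod1 (6.90 ± 0.03), Gpx4 (6.52 ± 0.07) and Prdx5 (6.50 ± 0.08) next after the peroxidases named above. In fatty acid oxidation the mitochondrial enzymes Acaa2 (5.79 ± 0.17), Acadvl (5.73 ± 0.04) and Acadm (5.66 ± 0.18) were among the bright members of a list of 22 detected genes.

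Genes known to be higher in male kidney included Kap and the cytochromes Cyp2e1 (6.84 ± 0.16) and Cyp4b1 (6.35 ± 0.12), which androgens raise in mouse kidney. All 11 male-biased genes were detected, and so were all 8 female-biased ones, led by Cyp2a4 (6.47 ± 0.22), one of a family of closely related genes. The Y-linked Eif2s3y (0.49), Ddx3y (0.16) and Uty (-3.75) were detected in all 4 mice and Xist in none, and the labels give male mice. Kdm5d, also Y-linked, was well above background in only some of the mice. Tissue kallikreins form a cluster of near-identical genes, so their probes may share signal. Of 14, 13 were detected, led by Klk1b5 (7.11 ± 0.07), Klk1, Klk1b26 (6.45 ± 0.10) and Klk1b3 (6.37 ± 0.20).

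In the renin-angiotensin system the receptor Agtr1a (1.74 ± 0.06) and the renin receptor Atp6ap2 (1.44 ± 0.24) led, and the converting enzyme gene Ace read 0.11 ± 0.36. The receptors Agtr2 and Agtr1b and the chymase Cma1 were not well above background in any mouse. In mineral metabolism the parathyroid hormone receptor Pth1r (5.42 ± 0.13) and Kl, Klotho (4.03 ± 0.17), were clear. The same list also held Cltrn (6.68 ± 0.07), an amino acid transport helper. The damage markers Havcr1 and Krt20 were near the dim end (-3.55 and -3.08), while Clu, clusterin, was bright at 6.40 ± 0.13.

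Macrophage and connective tissue genes left clear signals. Genes of antigen presentation and macrophages were detected in 11 of 11 cases, led by H2-Ab1 (4.73 ± 0.26), Cd74 (3.90 ± 0.24) and the macrophage growth factor receptor Csf1r (3.40 ± 0.27). Of 12 lymphocyte genes 8 were detected in every mouse, none above -0.17 (Nkg7), and Cd79a in none. That was near the 66.8% of all named genes, and 5 of 9 neutrophil genes (55.6%) lay below it. Fibroblast and matrix genes were detected in 12 of 12 cases, with Sparc at 5.62 ± 0.15, Dcn at 3.59 ± 0.42 and Col1a2 at 3.18 ± 0.27. Csf3r, the neutrophil growth factor receptor, was bright (5.85 ± 0.32) beside S100a9 at 1.38, with Mpo above background in 2 of 4 mice and Ngp in none.

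Many genes of other tissues were not detected. Of 1070 olfactory receptor genes 939 were not well above background on any array and 45 were on all, the brightest being Olfr544 at 1.13 ± 0.20. Of 252 vomeronasal receptors 209 were on none, of 60 defensins 49, and of 53 keratins 26. Oocyte genes were absent from the detected set in 10 of 12 cases, testis genes in 8 of 12, pancreas genes in 8 of 14, and neuron and retina genes in 7 of 14 and 7 of 12. Of 12 adrenal genes 4 were on none, among them Cyp11b1 and Cyp11a1 of steroid synthesis, and 3 on all. Of 13 skeletal muscle genes 6 were on none, among them Ckm, Mb and Myh4, and 4 on all. For comparison, 26.3% of all named genes were on none, and the glia (3 of 12), cardiac muscle (2 of 10) and nephron progenitor (2 of 12) lists lay below that share.

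A few genes of other tissues were nonetheless bright. Eya1, a nephron progenitor regulator, read 4.43 ± 0.21, while Six2 and Gdnf of the same list were not well above background. Vil1, villin, which the proximal brush border shares with intestine, read 4.01 ± 0.07. Snap25, a synaptic fusion protein, read 2.47, 1.63, 2.22 and 1.56. It had the order of mice 1, 3, 2 and 4 described above.

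Differences between the 4 mice were small for most genes. Over 13792 genes well above background with 4 values, the median SD was 0.152, and the highest mouse stood a median 1.27-fold above the lowest. An SD below 0.25 was found in 79.0% of genes, above 0.5 in 451 genes (3.27%) and above 1 in 52 (0.377%). The count above 1 was 81 without mouse 2 and also 81 without mouse 3. On each array 271 bright probes were printed as 10 spots, and their spread within an array had a median SD of 0.0627. Between mice the SD of the same probes was larger in 244 of 271. These differences include handling and labelling of each sample as well as the animal, since each mouse had 1 array.

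**Figure D3:**
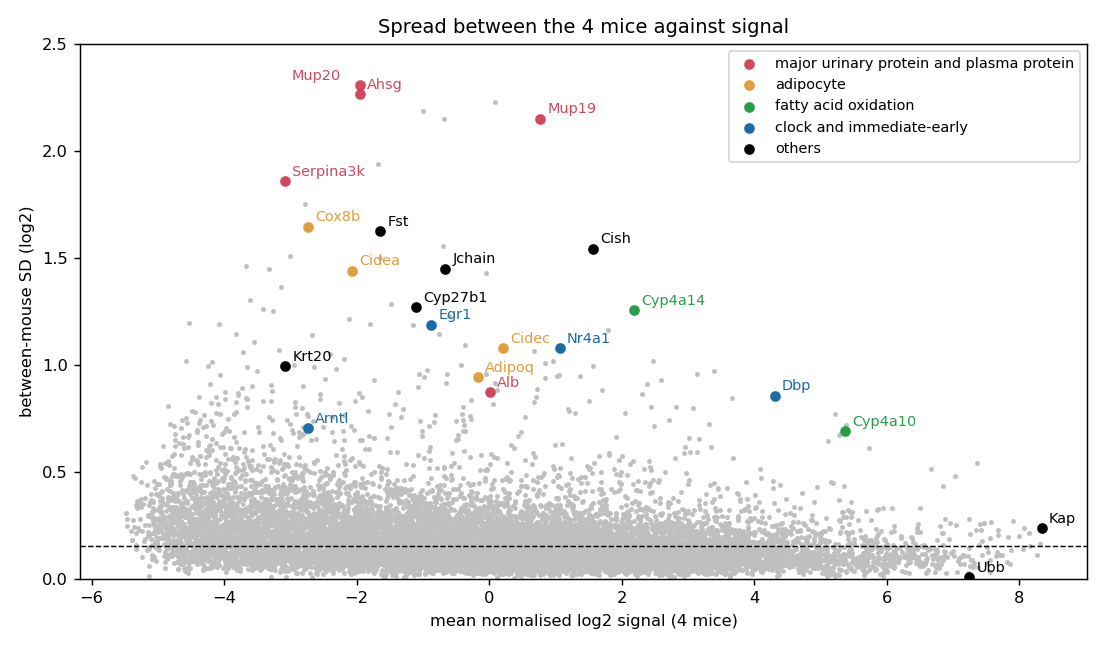
Standard deviation between the 4 mice (vertical axis, log2) against mean normalised log2 signal (horizontal axis) for genes well above background on all arrays, with the median SD as a dashed line. Mup20 and Ahsg reach 2.31 and 2.27, while Ubb, at a mean of 7.24, has an SD of 0.00757.

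The steadiest of the 1000 brightest genes was Ubb, ubiquitin, with an SD of 0.00757 (7.25, 7.23, 7.25 and 7.24). Atp5o (SD 0.0123), Rpl32l (0.0136) and the complex I subunits Ndufb11 (0.0142) and Ndufa7 (0.0153) came next. Also among the 15 steadiest were Cops9, Eif3h, Echdc2, Gnas, Spns1, Kcnj16, Nr1h4, Esd and Ndufb5. The nuclear receptor Nr1h4, which senses bile acids, and the potassium channel Kcnj16 are among these and have a specialised role in tubule transport or metabolism. Among common reference genes Ppia had an SD of 0.0751, Gapdh 0.133 and Actb 0.207.

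Which mouse was highest depended partly on the scaling, and this bears on every pattern below. Over all detected genes mouse 1 was highest in 33.3%, mouse 2 in 19.7%, mouse 3 in 14.8% and mouse 4 in 32.2%. The corresponding shares for the lowest mouse were 31.2%, 22.8%, 19.1% and 26.8%. Scaling on the added spike-in RNAs instead of the 75th percentile moved the median of all genes by -0.32, -0.12, 0.14 and 0.31 in mice 1 to 4. Mouse 4 was then highest in 73.2% of all detected genes and mouse 1 lowest in 73.4%. That setting therefore favours any list that is highest in mouse 4 or lowest in mouse 1, and its agreement adds little there. Of the 100 brightest genes with 4 values, mouse 1 was highest in 77 under the 75th percentile, in 23 after quantile normalisation and in 1 under spike-in scaling, so that lead is not used below. List deviations are given relative to the 75th percentile, with the settings under which the leading mouse changed. These 5 settings, called scalings below, were the 75th percentile, quantile normalisation, the median of detected probes, normexp background correction and the spike-ins.

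The largest differences between mice belonged to genes of the liver's secreted proteins. Mup20, a major urinary protein or pheromone carrier, read 0.93, -1.69, -2.35 and -4.68 in mice 1 to 4, an SD of 2.31 and a 48.9-fold range, and its second probe showed the same order with an SD of 2.10. Ahsg, fetuin A, read 0.87, -1.86, -2.16 and -4.67, a 46.5-fold range. Mup19 read 3.61, 0.76, 0.32 and -1.61. In all 3 genes mouse 1 was far above the others and mouse 4 far below.

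The 6 Mup genes detected in every mouse (Mup2, Mup4, Mup17, Mup18, Mup19 and Mup20) took 6 of the 7 highest SDs, with Ahsg second, and had the same order of mice. These genes are near-identical copies whose probes may share transcripts, so they do not count as 6 separate observations. Serpina3k, a protease inhibitor of plasma, read -0.56, -3.16, -3.59 and -5.01. Hpx, which carries haem, and Itih4 and Plg, plasminogen, had SDs of 1.46, 1.45 and 1.26 and were also highest in mouse 1. Alb, albumin, read 1.26, -0.14, -0.32 and -0.75, and Serpina1a, the trypsin inhibitor, 6.07, 5.74, 5.33 and 4.41.

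Across the 16 detected genes of the hepatocyte list mouse 1 was highest in 11 and mouse 4 lowest in 10, against 33.3% and 26.8% of all genes. The median deviation of mouse 1 from the 4-mouse mean was 0.65, and mouse 1 led the list under all 5 scalings. Under spike-in scaling its deviation was 0.326, mouse 4 stood at -0.0318 and mouse 2 was lowest. The summed linear signal of the list came mostly from Serpina1a, its brightest member. That sum was 90.7, 69.5, 54.0 and 37.5 times the 75th percentile signal in mice 1 to 4. Not all members shared this: Ttr, transthyretin, read 1.37, 2.41, 1.61 and 2.46, and the fibrinogen gene Fgg had an SD of 0.15. Cps1, the mitochondrial urea cycle enzyme of hepatocytes, did not pass background in any mouse. The part of liver RNA in these values was not tested.

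Adipocyte genes varied in the opposite sense. Cidec, a lipid droplet protein, read -0.98, -0.03, 0.18 and 1.63, Adipoq, adiponectin, -1.16, -0.47, -0.16 and 1.09, and Retn, resistin, -1.09, -0.12, -0.23 and 1.23. In each, mouse 1 was lowest and mouse 4 highest. Cfd, adipsin, read 1.02, 2.43, 1.94 and 2.80. Over the 12 detected genes mouse 4 was highest in 10, against 32.2% of all genes. Its median deviation was 0.70 against -0.70 in mouse 1, and these extremes held under all 5 scalings. Of these, spike-in scaling favours both extremes. Lep, leptin, was well above background in mouse 4 only. The summed linear signal was 27.0, 34.0, 28.3 and 45.05 times the 75th percentile signal. The part of adhering fat in these values was not tested.

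Some genes known from brown fat, picked after their values were seen, were highest in mouse 2, unlike the adipocyte list that holds Cidea. Cidea read -2.92, -0.13, -3.37 and -1.85 and Cox8b, a cytochrome oxidase subunit of brown fat and muscle, -4.56, -0.83, -3.54 and -2.01. Ucp1, the heat-producing uncoupling protein, was well above background in 2 of 4 mice, with -2.21 in mouse 2 and -5.17 in mouse 4. Mouse 2 was also highest for the cardiac myosin light chain Myl3 (-4.55, -2.64, -4.45 and -4.64) and for some urothelial genes. Upk1a, a plaque protein of the urinary tract lining, read -1.69, -0.44, -2.42 and -2.40, and Krt5, a basal keratin, -3.59, -2.29, -4.73 and -4.67. The median deviation of the detected urothelial list was highest in mouse 2 under all 5 scalings, but the list holds 5 genes. Mouse 2 was highest in 2 of them, mouse 1 in 2 and mouse 4 in 1, Krt20. Krt19, highest in mouse 1, read -0.53, -0.76, -1.91 and -2.33.

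Some genes of Henle's loop and the collecting duct were higher in mice 1 and 2 than in mice 3 and 4. They were picked after their values were seen. Slc14a2, the urea transporter of inner medulla and thin limb, read 0.94, 1.09 and -1.51 in mice 1 to 3 and was not well above background in mouse 4. Bst1 read -1.31, -1.40, -1.96 and -3.20. Slc4a11, a membrane transporter of the bicarbonate family, read 0.33, 0.09, -0.45 and -2.38, and Fxyd4 3.81, 3.57, 3.23 and 2.97. In the thick ascending limb list mouse 2 was highest in 7 of 11 genes and mouse 4 lowest in 8, against 19.7% and 26.8% of all genes. The exceptions were normexp, where mouse 1 led, and spike-in scaling, where mouse 4 deviated by 0.100 and mouse 1 was lowest. In the collecting duct principal cell list the deviations were small, at 0.0337, 0.146, 0.0905 and -0.0702 in mice 1 to 4, and mouse 3 led under normexp and spike-in scaling. The early proximal list had the opposite extreme, with mouse 4 highest in 13 of 20 genes, against 32.2% of all genes. Its list deviation was highest in mouse 4 under all 5 scalings, of which the spike-ins favour that mouse. Aqp2 (2.37, 2.45, 2.30 and 2.07) and Umod, made in cortex and medulla, differed by less than these.

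Several of the most variable genes are not assigned to a segment or tissue by the lists and were highest in mouse 1 or 2 and lowest in mouse 4. Fst, follistatin, which binds activin, read -0.51, -0.98, -1.03 and -4.06. Cck, the gut and brain peptide cholecystokinin, read 0.40, 0.52, -0.88 and -2.83, Kcnt1, a sodium-activated potassium channel, -0.06, -0.98, -2.00 and -3.56, and Grem1, a BMP antagonist, -1.96, -3.43, -3.93 and -5.10. Sycn (-1.17, -1.63, -3.33 and -5.01) and Scel (-1.51, -2.15, -3.47 and -4.92) were alike. Of the 100 most variable genes 39 were highest in mouse 1 and lowest in mouse 4, a pair of extremes found in 14.7% of all detected genes. The 39 include the near-identical Mup genes, and these extremes depend on the scaling. Among the 100 most variable genes under each setting, mouse 1 was highest in 54 and mouse 4 lowest in 55 with the 75th percentile. With the spike-ins the counts were 24 and 30, while mouse 4 was highest in 36 and mouse 1 lowest in 42.

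Fatty acid oxidation genes were lowest in mouse 1. Cyp4a14, a PPAR-alpha target that oxidises fatty acids at the omega end, read 0.64, 2.73, 3.57 and 1.83, and Cyp4a10 4.35, 5.70, 5.84 and 5.60. Angptl4, an inhibitor of lipoprotein lipase, read 4.59, 5.55, 5.50 and 4.99. In all 3 genes mice 2 and 3 were the highest pair. Mouse 1 was lowest in 18 of 22 members, against 31.2% of all genes, and its median deviation of -0.34 had the same sign under all 5 scalings. Of these, spike-in scaling lowers mouse 1 in most genes. Acadvl, among the brightest of the list, had an SD of 0.04, so the spread lay in part of the list.

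Tissue kallikreins were also lowest in mouse 1, in 12 of 13 genes, against 31.2% of all genes. The list deviation was lowest in mouse 1 under all 5 scalings, of which the spike-ins lower that mouse in most genes. As their probes may share signal, the 12 genes do not count as separate observations. Klk1 read 6.01, 6.68, 6.69 and 6.61 and Klk1b21 1.61, 2.47, 2.43 and 2.42. In both, mice 2 to 4 lay close together and mouse 1 apart.

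Some clock genes split the mice into pairs, with mice 1 and 4 opposite to mice 2 and 3. Dbp, an output of the clock that CLOCK and BMAL1 drive, read 5.18, 3.86, 3.34 and 4.85, Per1 1.54, 0.96, 0.81 and 1.39, and Nr1d1, which represses Arntl, -0.28, -1.31, -0.92 and -0.66. Arntl itself, which codes for BMAL1, read -3.65, -2.21, -2.16 and -2.95. Nfil3 (-1.97, -1.27, -1.43 and -2.04) and Clock (-1.76, -1.38, -1.45 and -1.54) went with Arntl. Over the 14 detected members mouse 1 was highest in 8 and lowest in 4, against 33.3% and 31.2% of all genes. Mouse 4 was highest in 1 and lowest in 1, against 32.2% and 26.8%, and its list deviation was 0.0499. The list deviation of mouse 1 was 0.259, and -0.0693 under spike-in scaling. Ciart, a repressor of the clock, was well above background in 3 of 4 mice at -1.94 in mouse 1 and -3.67 in mouse 4 and at -5.10 in mouse 2. The times of day at which the kidneys were taken are not given in the labels.

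Promoter windows are shown for Ciart and Per1 because both hold the E-box CACGTG, the letters bound by CLOCK and BMAL1, and both were higher in mice 1 and 4. Ciart lies at chr3:95882229-95882478 on the minus strand with 3 matches between 116 and 44 bases before the start. Per1 lies at chr11:69098699-69098948 on the plus strand, 1 of 2 annotated starts, with 1 match 166 bases before it (GRCm38.p6, capitals mark CACGTG, which reads the same on both strands).
Ciart: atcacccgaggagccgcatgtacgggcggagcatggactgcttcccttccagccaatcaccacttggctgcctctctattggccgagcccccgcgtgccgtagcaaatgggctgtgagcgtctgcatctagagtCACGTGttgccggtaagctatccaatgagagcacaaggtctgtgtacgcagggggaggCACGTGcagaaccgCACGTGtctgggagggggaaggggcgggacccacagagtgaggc
Per1: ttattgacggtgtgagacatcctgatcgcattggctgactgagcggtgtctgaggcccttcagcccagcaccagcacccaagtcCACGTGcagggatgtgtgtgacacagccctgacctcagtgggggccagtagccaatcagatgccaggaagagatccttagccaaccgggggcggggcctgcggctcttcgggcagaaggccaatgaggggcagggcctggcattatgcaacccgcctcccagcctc
Of 15 clock genes with a window 5 held CACGTG (Bhlhe41, Ciart, Cry1, Per1 and Tef), in 6 of 20 windows (30%), and of all 32851 windows 6.02%. Dbp and Nr1d1, also higher in mice 1 and 4, are not among the 5. A link between the motif and the split of the mice was not tested. Cry1 was not well above background in any mouse.

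Immediate-early genes, which respond to stimuli within minutes, were lowest in mouse 3. Egr1 read -0.84, -0.37, -2.54 and 0.23, Nr4a1 0.54, 2.10, -0.19 and 1.82, Ier3 -0.79, 0.13, -1.25 and 0.31, and Jun 2.17, 2.5, 1.83 and 3.13. In each of these mice 2 and 4 were the highest pair. Fos was well above background in 2 of 4 mice, at -3.27 in mouse 2 and -2.83 in mouse 4. Mouse 3 was lowest in 10 of 13 detected members, against 19.1% of all genes, and its list deviation was the lowest under every scaling but that on the spike-ins, where mouse 1 was lower.

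Heat shock and chaperone genes were highest in mouse 4, in 9 of 10 members, against 32.2% of all genes. The list deviation was highest in mouse 4 under all 5 scalings, of which the spike-ins favour that mouse. Hspa1a, the inducible HSP70, read -1.43, -1.40, -1.42 and 0.06, Hsph1 2.73, 2.89, 2.39 and 3.83, and Hspa5, the chaperone of the endoplasmic reticulum, 4.80, 4.76, 4.67 and 5.59. Hspa8, the constitutive form, was the exception, highest in mouse 1 (6.86, 6.30, 6.38 and 6.38). The injury markers Krt20 (-3.68, -3.54, -3.50 and -1.59) and Havcr1 (-4.59, -3.75, -3.88 and -1.99), or KIM-1, were also highest in mouse 4. Lcn2, another injury marker, was highest in mouse 1 instead (0.83, -0.51, -0.80 and -0.71), so the markers did not single out the same animal.

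Vitamin D enzymes set mouse 1 apart. Cyp27b1, which makes active vitamin D, read 0.79, -1.94, -1.57 and -1.70, while Cyp24a1, which breaks it down, read 2.05, 3.54, 3.23 and 3.26 and the receptor Vdr 2.89, 3.77, 3.36 and 3.41. Mouse 1 was the highest for the former and the lowest for the latter pair. The median SD over the 12 genes of that list was 0.1545.

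Vessel, mural and matrix genes were highest in mouse 1: 12 of 12 endothelial, 10 of 10 juxtaglomerular and smooth muscle and 11 of 12 fibroblast genes, against 33.3% of all genes. This held under the 4 scalings based on kidney signal, but under spike-in scaling mouse 1 deviated by -0.0957 and -0.0128 in the first 2 lists and mouse 3 led the fibroblast list. Dcn, decorin, read 4.09, 3.36, 3.78 and 3.14 and Lum, lumican, -1.22, -2.35, -1.61 and -2.63.

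Some variable genes stood alone. Cish, a feedback inhibitor of cytokine signalling induced by STAT5, read 3.15, 2.59, -0.06 and 0.60, high in mice 1 and 2. Jchain, which joins antibody subunits in plasma cells, read -0.02, -0.08, -2.82 and 0.27, low in mouse 3 alone. Slpi, a secreted protease inhibitor, read 1.38, -1.51, 0.97 and -1.0, and Zbtb16, a glucocorticoid-responsive transcription factor, -1.69, -2.93, 0.19 and -1.51. Mt2, a metallothionein, read 5.86, 5.06, 4.91 and 4.93, high in mouse 1.

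**Figure D4:**
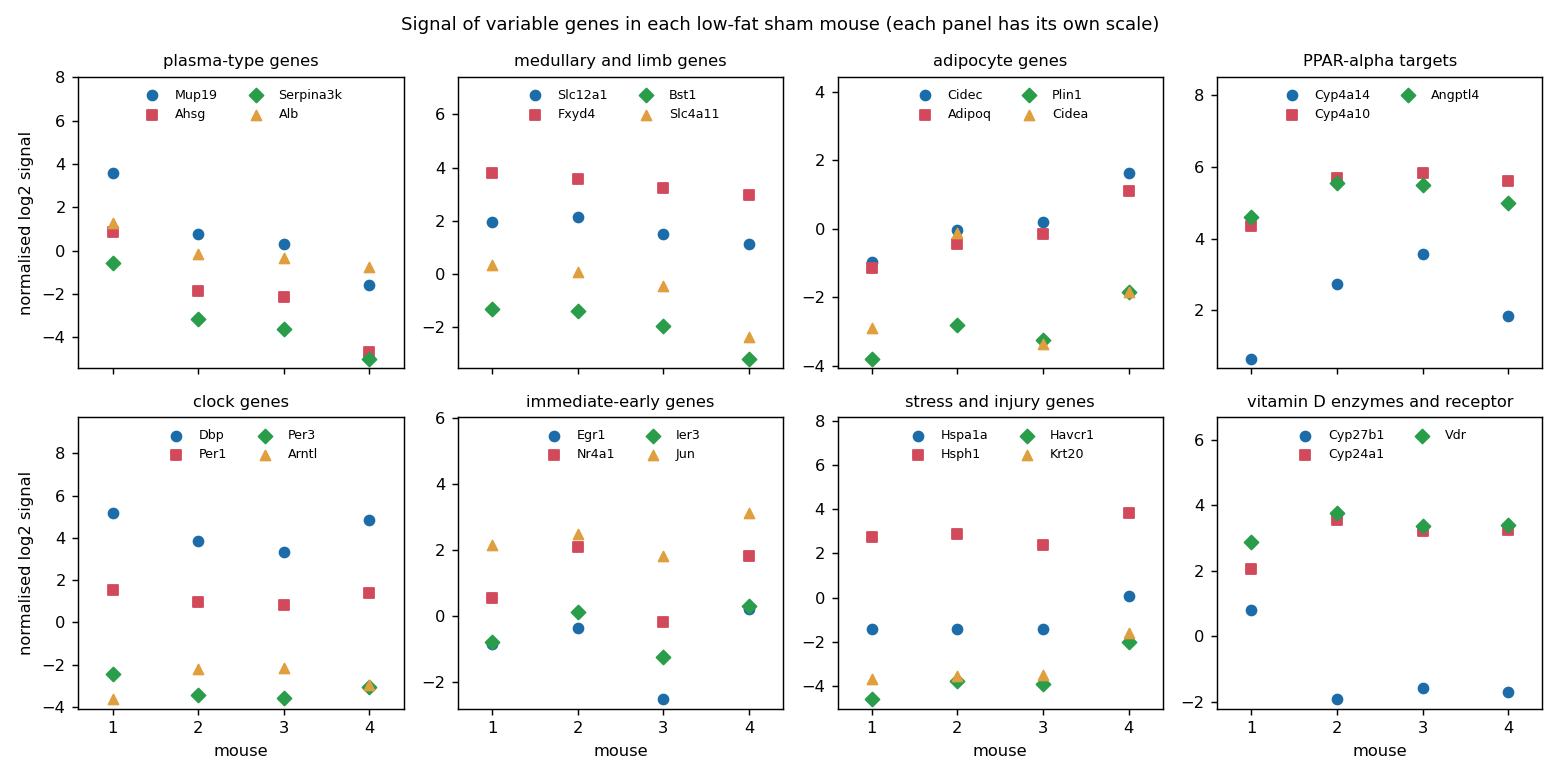
Normalised log2 signal (vertical axis, own scale per panel) of variable genes in each of the 4 mice (horizontal axis), 1 point per gene and mouse. Mup19 lies between 3.61 in mouse 1 and -1.61 in mouse 4, Adipoq lies between -1.16 and 1.09 the other way, and Dbp and Arntl are opposite to each other.

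**Figure D5:**
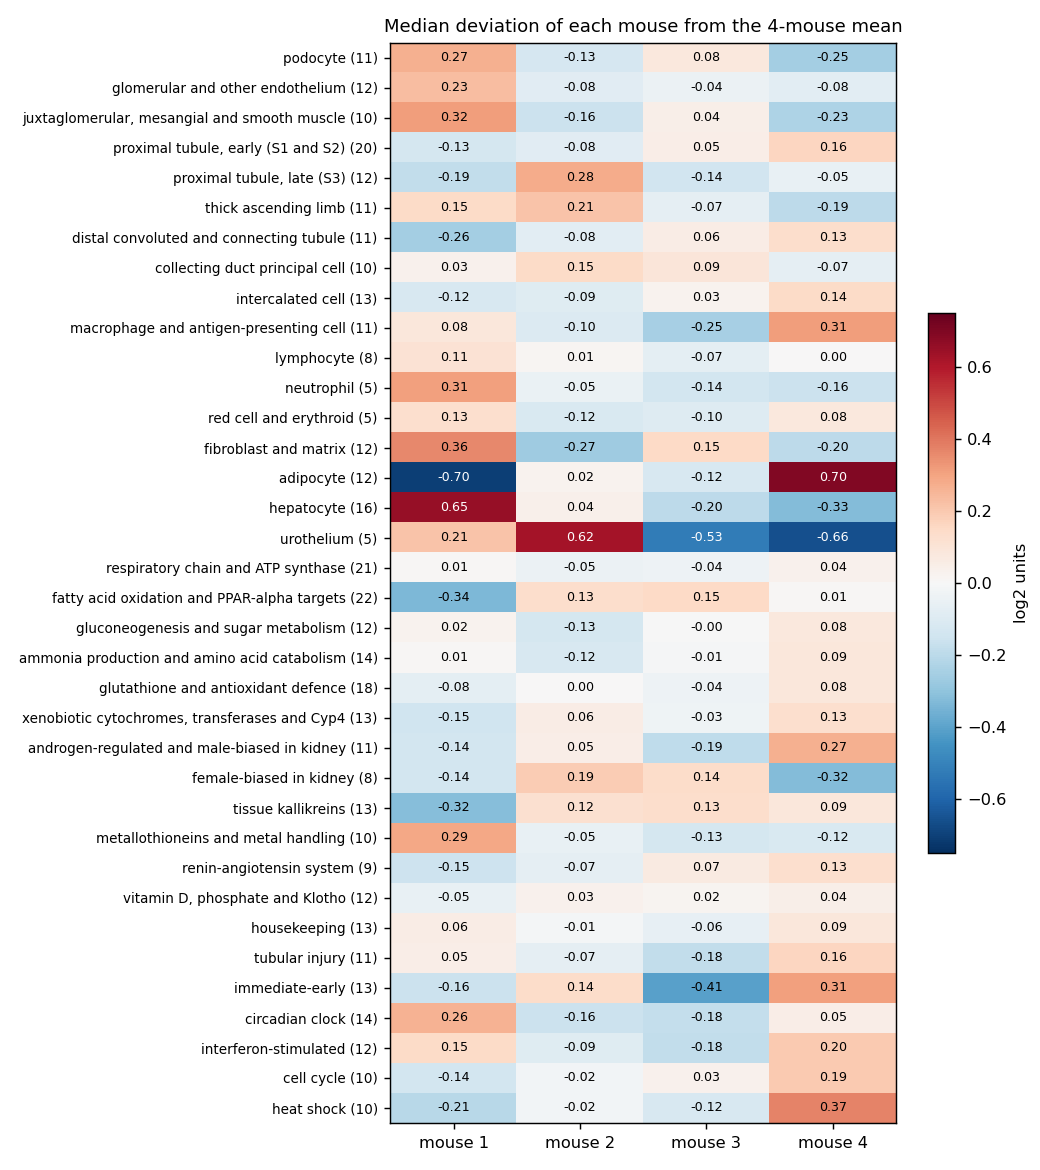
Median deviation (log2 units, colour and number) of each mouse from the 4-mouse mean over the detected genes of each list, with their number in brackets. By this median, hepatocyte genes are highest in mouse 1 (0.65), adipocyte genes in mouse 4 (0.70) and urothelial genes in mouse 2 (0.62), under all 5 scalings. Mouse 2 is highest in 2 of the 5 urothelial genes. Under spike-in scaling 25 of 51 lists kept their highest mouse, and the sign of mouse 1 turned in 28 lists, endothelial, juxtaglomerular, podocyte and clock genes among them.

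The same genes were also variable elsewhere in the series, to differing degrees. Of the 100 most variable genes 78 had an SD above the 95th percentile of their group among the low-fat uninephrectomy mice, 38 among the high-fat sham mice and 49 among the high-fat uninephrectomy mice. In all 3 groups together 25 did, against 0.529% of all detected genes, and in none 12. Mup20 had SDs of 3.63, 1.14 and 1.06 in those groups and Ahsg 3.12, 1.16 and 0.56, against 2.31 and 2.27 in the low-fat sham mice. The low-fat uninephrectomy arrays shared a slide, but each high-fat group was split over slides 1 and 2. Over all detected genes the median within-group SD was 0.126, 0.294 and 0.286 in the same order. In the high-fat groups, spread between mice and spread between slides cannot be told apart.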

How the data were processed

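From each frozen kidney 100 ng of total RNA received the dye Cy3 and was read on an Agilent mouse array with 1 colour, per the labels' protocols. The values used are the processed signal intensity deposited by the authors, background-subtracted and detrended within each array by Feature Extraction 10.7.3.1, per the file headers (10.7 in the submitters' processing notes). The authors' deposited value table held the same signal intensity, rounded, and served as an alternative. From the intensity, control spots and outlier-flagged spots were dropped, spots of a probe averaged, log2 taken, and each array's 75th percentile subtracted. The brightest probe represented a gene, and genes take the names in the files. A gene was called detected in a mouse where the scanner's flag marked a probe as well above background. Spread between mice was computed over genes detected on all 4 arrays with 4 values. No groups were compared, so no test of a difference was run. Dixon's ratio for 4 values served only to mark a mouse far from the others, and the number of arrays limits the precision.

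The members and the gene lists were chosen with earlier results of these data known. By rule, the text names the 30 highest genes, up to 5 highest members of each list (4 for other tissues), the 30 largest SDs, each list's most variable member, and the 15 steadiest of the 1000 highest. Further list members and genes were named after their values were seen, among them many of those given by mouse under the variable lists. Alternatives were quantile, median and spike-in scaling, normexp (offset 50), probe choice, filters and leaving out each mouse. The files used hold no mean signal column, so the planned normexp correction was run on the median signal instead. That setting, spike-in scaling and the second-brightest probe were chosen after seeing the data. The spread calculation was tested on simulated data. Python 3.11.15, numpy 2.4.6, pandas 2.3.3 and scipy 1.17.1 were used, with limma 3.58.1 in R 4.3.3 for normexp. Promoter windows are RefSeq's. Some genes that the naming rule selects are not reported here.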

Additional observations from a re-analysis of the deposited data

Results flagged for a closer look

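In 23 of 305 named genes with 4 values (7.54%) a single mouse lay far from the others, its gap to the nearest mouse, divided by the whole range, being above Dixon's 95% critical value. Chance flags about 1 in 20 such groups, and 5.28% of all detected genes met the same rule. Mouse 1 was the far one in 10 named genes of the 23, and in 43.0% of all detected genes that met the rule. It was high for Cyp27b1 (0.79, others -1.94 to -1.57), Mt2 (5.86, others 4.91 to 5.06), Hspa8 (6.86, others 6.30 to 6.38), Cox6a1 (8.27, others 7.97 to 8.01) and the endothelial receptor Eng (1.88, others 1.52 to 1.57). It was low for the kallikreins Klk1 (6.01, others 6.61 to 6.69), Klk1b21 (1.61, others 2.42 to 2.47) and Klk1b3 (6.07, others 6.44 to 6.49), whose probes may share signal. Cela1 (-4.74, others -4.00 to -3.94) and Ddx3y (-0.0914, others 0.22 to 0.27) were also low.

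Mouse 2 was far for Myl3 (-2.64, others -4.64 to -4.45), Kcnj1 (4.52, others 4.30 to 4.31) and Cd4 (-0.50, others -0.20 to -0.18). Mouse 3 was far for Jchain (-2.82, others -0.08 to 0.27), the tryptophan enzyme Kynu (-1.84, others -2.97 to -2.86), the apolipoprotein Apoh (0.23, others 0.97 to 1.05) and the lens crystallin Cryaa (-3.56, others -2.58 to -2.49). Mouse 4 was far for Fst (-4.06, others -1.03 to -0.51), Krt20 (-1.59, others -3.68 to -3.50), Hspa1a (0.0571, others -1.43 to -1.40), Hspa5 (5.59, others 4.67 to 4.80), the water channel Aqp4 (-1.34, others -0.59 to -0.47) and Eif3h (5.225, others 5.19 to 5.2). The largest of these gaps were 9.31-fold below the mean of the others for Fst and 7.37-fold below for Jchain. For Eif3h the SD between mice was 0.0159, below the median spot SD within an array (0.0627).

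Of 12195 probes with no gene name in the files, 5053 (41.4%) were well above background on all 4 arrays. They made up 34 of the 100 brightest probes and entered no ranking of genes.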

How the results depend on the processing

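No paired analysis was possible because no comparison between groups was made. Of the 100 highest genes, 65 were shared when a gene's probes were averaged and 26 when the second-brightest probe was used, a ranking of 5476 genes that can hold only the 48 of the 100 with a second probe. Of the 100 most variable genes, 9 were shared with the second-brightest probe, 11 with genes detected on at least 1 array, 11 with no filter, 29 among genes above the median signal, and 65 to 82 when 1 mouse was left out (65 without mouse 4, 66 without mouse 1). The 52 genes with an SD above 1 became 9 (of 3521 genes), 409, 488 and 12 under those 4 settings, and 54 to 81 when 1 mouse was left out. The median SD of 0.152 became 0.313 under spike-in scaling. With the scanner's less strict flag of positive and significant signal, 2338 genes in place of 5437 were detected on no array. Under spike-in scaling 25 of 51 lists kept their highest and 24 their lowest mouse, and the sign turned in 28, 13, 18 and 18 lists for mice 1 to 4. Among these were mouse 4 in the thick ascending limb list (0.100) and mouse 1 in the endothelial (-0.0957) and juxtaglomerular (-0.0128) lists. The cause was not tested. Looser filters admit dim probes, whose values near background carry no order.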

Other observations

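Gene families that mark body position and barriers added detail on what these kidneys expressed. Of 41 Hox genes, which set position along the body axis, 31 (75.6%) were detected in all 4 mice, against 66.8% of all named genes. Hoxa7 read 3.11 and Hoxb7 1.75. Hoxb8 read -0.30, 1.26, -0.16 and -0.56 in mice 1 to 4, highest in mouse 2. Of 31 claudins, the proteins of tight junctions, 16 (51.6%) were detected in all mice, led by Cldn10 (3.40) and Cldn2 (3.23), the pore former of the proximal tubule. Of 11 aquaporins 8 (72.7%) were detected in all mice. Aqp11 read 2.16 and Aqp7 -2.37, while Aqp9 and Aqp12 were not well above background on any array.

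Most defensins, the small antimicrobial peptides, were not detected, but Defb29 read 4.03 and Defb1, which distal tubules make, 1.67. Of 369 Zfp genes, most of them zinc finger transcription factors, 318 were detected in all mice, against 66.8% of all named genes. Of 81 interleukin and interleukin receptor genes 36 were.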
